A study of Homo sapiens with 4 samples.

Results

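The 10 genes described here write or erase DNA methylation. DNMT1, DNMT3A, DNMT3B, UHRF1, UHRF2 and HELLS place the mark or help to place it, and TET1, TET2, TET3 and TDG take part in removing it. They were chosen by name: a gene entered when a probe set of the array was annotated with its symbol alone, and where a gene had several such probe sets, the 1 with the highest mean over all arrays stood for it. All 10 were found, through 12 probe sets, among 17958 genes measured. The cells were HCT116, an established human colorectal carcinoma line, and none of the sources used here describes an engineered allele. Treated cells received 5-aza-2'-deoxycytidine (decitabine) at 1 µM from 24 hours after seeding and again 48 hours after the first dose (2 arrays, treated 1 and treated 2). Vehicle cells were given the vehicle, whose composition is not given in the sources used here (2 arrays, vehicle 1 and vehicle 2). Total RNA was taken from both groups 72 hours after the first dose and hybridized to Affymetrix arrays. The labels number the samples without saying whether they came from separate cultures, so the p-values reflect how these samples differ, which may be technical variation alone.

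In mammalian cells the de novo enzymes DNMT3A and DNMT3B set methyl groups on cytosines of CpG sites, and DNMT1 copies the pattern to the new strand at each replication. UHRF1 recognises the half-methylated sites behind the replication fork and brings DNMT1 to them, and HELLS, a chromatin remodeller, opens nucleosomal DNA to this machinery. TET enzymes oxidise 5-methylcytosine, and TDG, a DNA glycosylase, excises the later oxidation products so that base excision repair can put back an unmethylated cytosine. Decitabine is built into replicating DNA, where methyltransferases become covalently trapped and are then degraded. That loss concerns the proteins, which an expression array does not measure.

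All levels are log2 values after RMA, a procedure that corrects background, equalises the arrays and summarises the probes of a probe set, so a difference of 1 is a 2-fold change. Differences between the groups were tested with limma across all 17958 genes, and a gene is said to rise or fall when its Benjamini-Hochberg adjusted p over all of them was under 0.05. By that rule 12.4% of all genes were higher and 15.6% lower in treated cells, 28.0% in all. These shares rest on 2229 rises and 2794 falls, which became 1267 and 1196 without vehicle replicate 1. Leaving out vehicle replicate 2 gave 1335 and 1237. Array medians were 5.84 in both treated samples, against 5.73 and 5.72 in the vehicle samples, and the arrays of each group correlated at 0.992 (treated) and 0.995 (vehicle) over 33297 probe sets, which are not independent replicates. The smallest log2 fold change among called genes had a size of 0.37, and with 2 arrays a group the number of arrays limits the precision. Of 11 germline genes often silenced by methylation, 9 rose and 0 fell in limma's test (unadjusted p under 0.05 for 10 higher and 0 lower genes), with a median log2 fold change of 4.72 against -0.07 for all genes. This list was chosen with earlier results of these data known. It includes DPPA3, which is counted again below among the proteins that work with the writers. Among 13 epithelial markers, 4 rose and 4 fell. KRT8 and CDH1 were bright in both groups, KRT8 at 13.22 in treated and 13.01 in vehicle cells and CDH1 at 10.17 and 10.23, while the intestinal genes VIL1 (4.60 and 4.31) and CDX1 (5.7 and 5.71) were dim and not called. The rises were of LGALS4 (6.89 in treated and 5.13 in vehicle cells), KRT20 (9.23 and 6.88), KRT18 (13.26 and 12.82) and CDX2 (8.62 and 7.92). The falls were of CLDN4 (9.83 and 10.75), CLDN3 (9.29 and 10.03), EPCAM (11.09 and 11.81) and CLDN7 (11.30 and 11.76). Of 19 genes that mark fibroblasts, endothelial cells or leukocytes, 10 rose and 1, KDR (3.86 in treated and 4.40 in vehicle cells), fell. The rises of smallest p were of THY1 (7.59 and 4.44), COL6A3 (7.20 and 4.56), ENG (7.72 and 5.19) and CD3D (6.62 and 4.82), which cover fibroblasts, endothelium and T cells. The summed log2 level of the 19 genes was 109.8 on both treated arrays, against 91.6 to 93.6 on the vehicle arrays. PTPRC, the marker shared by leukocytes (3.12 and 3.02), COL3A1 of fibroblasts (4.37 and 4.40) and CDH5 of endothelium (4.49 and 4.31) were among the 8 that were not called. The part of these markers in the results below was not tested. In RNA from whole cultures of this line, a change in each cell and a change in the share of cells expressing a gene cannot be told apart.

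Transcripts of 4 of the 10 writers and erasers changed with treatment, and those of the 3 methyltransferases did not pass the test. HELLS fell most, by 3.09-fold. UHRF1 fell by 1.49-fold and TET1 by 1.54-fold, while TET2 was the member that rose, by 1.5-fold. The median log2 fold change of the 10 genes was 0.02 and the mean -0.19, with a range of -1.63 to 0.58. There was thus 1 rise among 10 members beside a background of 12.4%, and there were 3 falls beside a background of 15.6%. Without vehicle replicate 1 the members had 0 rises and 2 falls (HELLS and TET1), and without vehicle replicate 2 they had 1 rise and 1 fall (TET2 and HELLS). The treated and vehicle arrays did not overlap for 6 members, 3 higher and 3 lower, which is close to the 65.8% of all genes whose arrays did not overlap (26.3% higher and 39.5% lower).

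**Figure D1:**
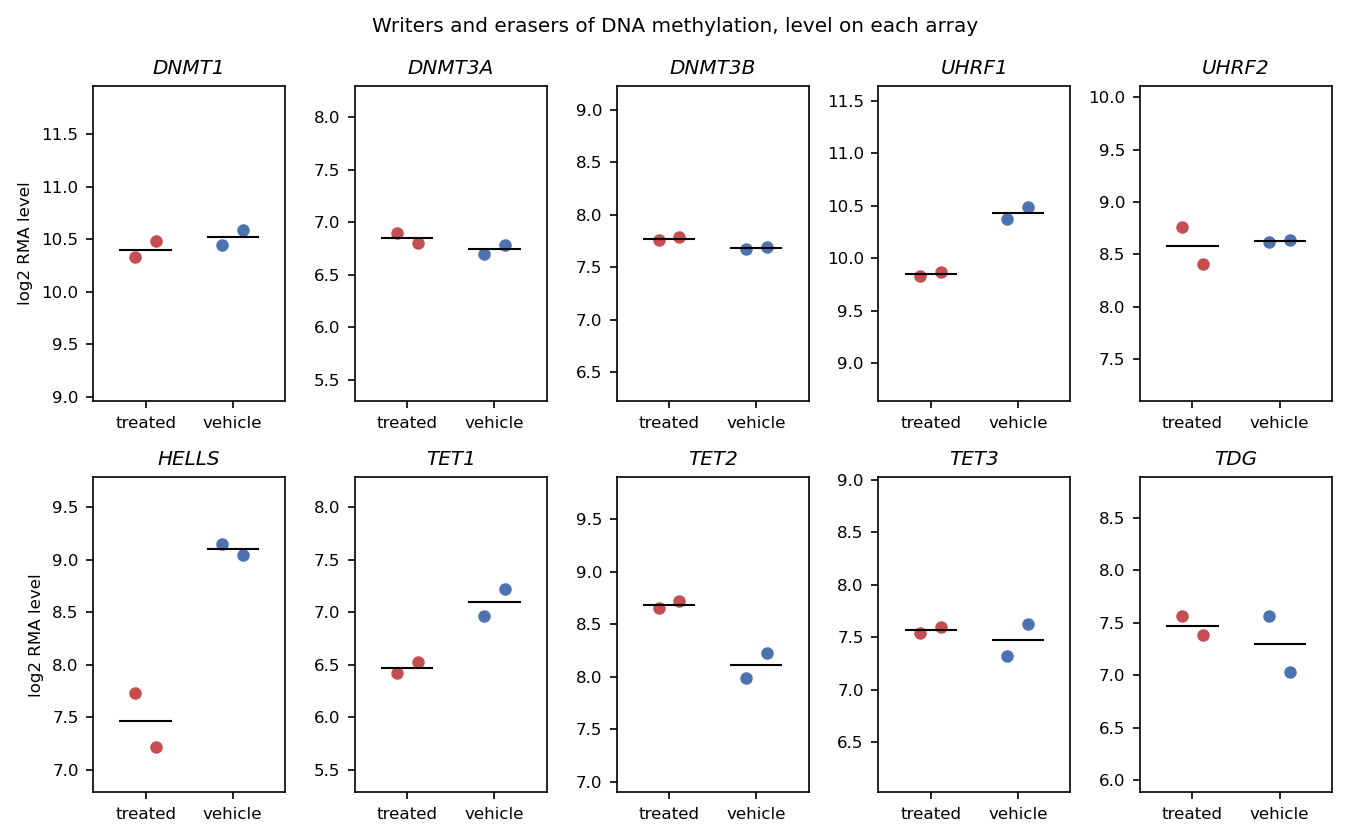
Log2 RMA level (y axis) of each writer and eraser in the treated and vehicle samples, 1 point per array, with the mean of the 2 arrays as a line and the same span of 3 log2 units in every panel. HELLS shows the widest separation, 7.73 and 7.22 in treated samples below 9.15 and 9.05 in vehicle samples.

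HELLS, also known as LSH, is a helicase-like remodeller whose loss in mice and in human immunodeficiency with centromeric instability lowers methylation of repeats. It is encoded on chromosome 10. Its level was 7.73 and 7.22 on the treated arrays, against 9.15 and 9.05 on the vehicle arrays. Both treated arrays lay at least 1.32 log2 units below both vehicle arrays, although the treated pair itself differed by more than the vehicle pair. The means were 7.47 ± 0.36 in treated and 9.10 ± 0.07 in vehicle cells (SD, n = 2 each). The log2 fold change was -1.63 (SE 0.18, 95% interval -2.05 to -1.20, limma adjusted p = 0.00103), and 3.02% of all genes changed by a larger amount in either direction. Under 11 alternative settings HELLS was called lower in each, with log2 fold changes between -1.88 and -1.37. The 3 genes with the most similar profile over the 4 arrays, by Euclidean distance of mean-centred log2 levels, were GCA, ARV1 and BRIP1, at distances of 0.0724, 0.0853 and 0.0876 and with log2 fold changes of -1.65, -1.70 and -1.67.

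UHRF1, encoded on chromosome 19, reads half-methylated DNA and ubiquitinates histone H3 to attract DNMT1. Its level was 9.83 and 9.87 in treated samples, against 10.37 and 10.49 in vehicle samples, and the groups were 0.50 log2 units apart at their nearest arrays. The log2 fold change was -0.58 (SE 0.12, 95% interval -0.86 to -0.30, limma adjusted p = 0.0120). The fall was not called without vehicle replicate 1 (-0.64, adjusted p = 0.0644) or without vehicle replicate 2 (-0.52, adjusted p = 0.127), fits in which the lone vehicle array is assumed to vary like the treated pair. A second, dim probe set annotated to UHRF1 read 4.25 and 4.63 in treated samples and 4.20 and 4.74 in vehicle samples. It showed no separation of the groups (log2 fold change -0.03, SE 0.21, limma adjusted p = 0.935 over all 19181 singly annotated probe sets), and averaging both probe sets gave -0.30 with an adjusted p of 0.192. The UHRF1 call therefore rests on its brighter probe set. VASH2, CD40 and TEKT3 had the profiles nearest to it (distances 0.0199, 0.0257 and 0.0291).

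UHRF2, the paralog on chromosome 9, did not pass the test. Its level was 8.76 and 8.41 in treated samples, against 8.62 and 8.64 in vehicle samples, so that the treated arrays lay on either side of the vehicle pair. The log2 fold change was -0.05 (SE 0.15, 95% interval -0.39 to 0.30, limma adjusted p = 0.845). Within arrays, the difference UHRF1 minus UHRF2 was 1.08 and 1.46 in treated samples and 1.74 and 1.85 in vehicle samples, a change of -0.53. These values did not overlap, and the two-sided exact permutation p was 0.33, the smallest that 2 arrays against 2 allow (0.416 after adjustment over 5 pairs of paralogs). Single genes did not overlap in 65.8% of cases, and the share over pairs of genes was not counted. Most of the change is the fall of UHRF1 itself (-0.58), so the difference adds no separate evidence.

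DNMT1, the maintenance methyltransferase on chromosome 19, had levels of 10.33 and 10.48 in treated samples, against 10.45 and 10.59 in vehicle samples. The groups overlapped. The 95% interval of its change ran from 0.753-fold to 1.13-fold (limma, log2 fold change -0.12, adjusted p = 0.540), so a fall of its transcript as large as that of HELLS lay outside the interval.

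The de novo enzymes moved little. DNMT3A, on chromosome 2, was at 6.90 and 6.80 in treated samples and at 6.70 and 6.79 in vehicle samples. DNMT3B, on chromosome 20, was at 7.76 and 7.79 in treated samples and at 7.67 and 7.69 in vehicle samples. In both genes the treated arrays lay above the vehicle arrays by a narrow margin, 0.01 for DNMT3A and 0.06 for DNMT3B. The 95% intervals were 0.884-fold to 1.3-fold for DNMT3A and 0.882-fold to 1.28-fold for DNMT3B, and neither passed limma's test (adjusted p = 0.571 and 0.617). Within arrays the difference DNMT3A minus DNMT3B changed by 0.02, with overlapping groups (two-sided exact permutation p = 1).

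Among the erasers, TET1 and TET2 moved in opposite directions. TET1, a CXXC-domain dioxygenase encoded on chromosome 10, had levels of 6.42 and 6.53 in treated samples, against 6.97 and 7.22 in vehicle samples, and all treated values were lower. Its log2 fold change was -0.62 (SE 0.13, 95% interval -0.94 to -0.30, limma adjusted p = 0.0153). TET2, which lacks a CXXC domain of its own and is often mutated in myeloid neoplasms, is encoded on chromosome 4 and had levels of 8.66 and 8.72 in treated samples, against 7.99 and 8.23 in vehicle samples. All treated values were higher, with a log2 fold change of 0.58 (SE 0.13, 95% interval 0.27 to 0.89, limma adjusted p = 0.0175). Each call was lost without 1 vehicle array: TET1 had -0.49 without vehicle replicate 2 (adjusted p = 0.147), and TET2 had 0.46 without vehicle replicate 1 (adjusted p = 0.177). A second TET2 probe set read 7.97 and 8.33 in treated samples and 7.68 and 7.90 in vehicle samples. It also was higher on both treated arrays, by a smaller and uncalled amount (log2 fold change 0.36, SE 0.16, limma adjusted p = 0.153 over the singly annotated probe sets).

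TET3, on chromosome 2, and the glycosylase TDG, on chromosome 12, did not pass the test. TET3 was at 7.54 and 7.60 in treated samples and at 7.32 and 7.62 in vehicle samples (log2 fold change 0.10, 95% interval -0.23 to 0.43, limma adjusted p = 0.638). TDG was at 7.57 and 7.38 in treated samples and at 7.57 and 7.03 in vehicle samples (log2 fold change 0.17, 95% interval -0.28 to 0.62, limma adjusted p = 0.555). The vehicle pair of TDG differed more than the treated pair, and for both genes the groups overlapped.

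Differences between the 3 TET transcripts were also taken within arrays, where the test cannot pass with 2 arrays against 2. The difference TET1 minus TET2 changed by -1.20 between treated samples (-2.24 and -2.19) and vehicle samples (-1.02 and -1.0). TET2 minus TET3 changed by 0.48, with 1.11 and 1.12 in treated samples and 0.66 and 0.61 in vehicle samples. TET1 minus TET3 changed by -0.72, with -1.12 and -1.07 in treated samples and -0.35 and -0.39 in vehicle samples. None of these 3 differences overlapped between groups, and each reached the smallest two-sided exact permutation p of 0.33 (adjusted p = 0.416). Single genes did not overlap in 65.8% of cases, and the share over pairs of genes was not counted. The 3 differences are not independent results, since TET1 minus TET3 is the sum of the other 2. They come from the same arrays as the calls of TET1 and TET2. A difference between 2 probe sets shows unequal change and not which transcript is more abundant. The profiles nearest to TET1 were those of IL1RN, CAPN6 and MTA1 (distances 0.0269, 0.0335 and 0.0398), and those nearest to TET2 were ZNF480, NOS1 and STS (0.0324, 0.0395 and 0.0396).

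**Figure D2:**
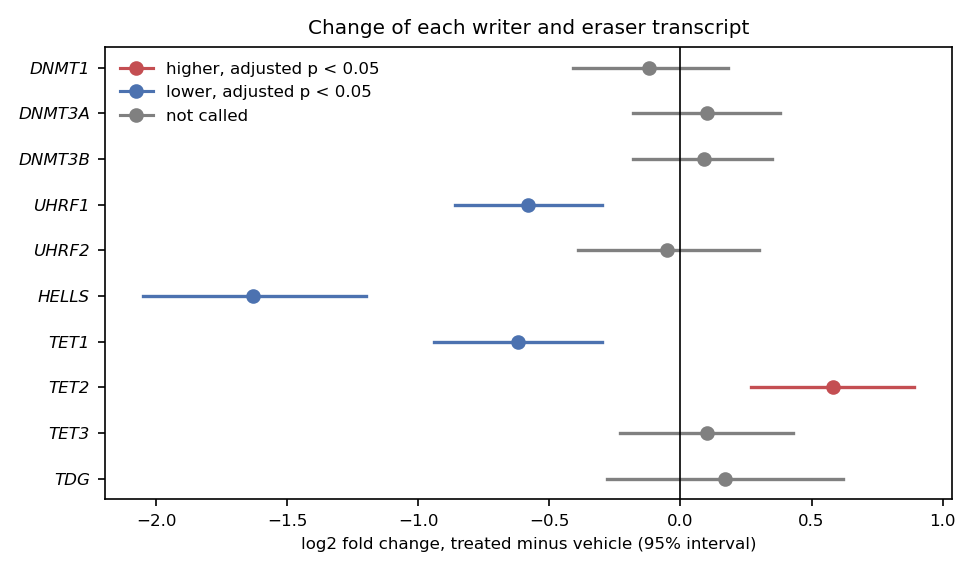
Log2 fold change of each writer and eraser, treated minus vehicle (x axis), with limma's 95% interval as a line; blue points were called lower, red higher and grey not called. The intervals of HELLS (-2.05 to -1.20), UHRF1 and TET1 lie below 0, that of TET2 (0.27 to 0.89) lies above 0, and those of the other 6 genes span 0.

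Proteins that work with the writers were examined as a list of 23 genes, 22 of which were tested. Beside 15.6% falls and 12.4% rises among all genes, 7 of these fell, 3 rose and 12 were not called. Their median log2 fold change was -0.13 against -0.07 for all genes, and their mean was 0.22. The falls included CDCA7, the zinc finger protein that forms a remodelling complex with HELLS. CDCA7 was at 8.85 and 8.83 in treated samples and at 9.87 and 9.75 in vehicle samples, with a log2 fold change of -0.98 (SE 0.12, limma adjusted p = 0.00149). Thus the transcripts of HELLS and CDCA7 were each lower in both treated samples than in both vehicle samples. Taken singly, this held for 39.5% of all genes, and the share of gene pairs in which both were lower was not counted. CDCA7L, a relative of CDCA7, fell as well (limma, log2 fold change -0.77, adjusted p = 0.00601). ZBTB24, which activates CDCA7, was not called (-0.03, adjusted p = 0.853). The values of CDCA7L and ZBTB24 were known when they were picked for naming.

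LIG1 and PCLAF are replication proteins bound by UHRF1 or DNMT1 during maintenance. LIG1, the ligase that joins Okazaki fragments, was at 8.31 and 8.48 in treated samples and at 9.26 and 9.30 in vehicle samples (1.84-fold lower). PCLAF, a PCNA-binding factor, was at 9.51 and 9.41 in treated samples and at 10.26 and 10.36 in vehicle samples (1.80-fold lower). SUV39H1, a histone methyltransferase of heterochromatin, was 2.34-fold lower, at 7.62 and 7.48 in treated and 8.83 and 8.72 in vehicle samples. Limma adjusted p-values were 0.00264, 0.00274 and 0.000653 for LIG1, PCLAF and SUV39H1. PCNA was not tested because its probe set is annotated with a second gene.

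Of the 3 rises in this list, those of ZFP57 and DPPA3 started from low vehicle levels and that of NSD1 did not. ZFP57, a KRAB zinc finger protein that recruits TRIM28 and the methyltransferases to methylated imprinted regions, was at 9.38 and 9.36 in treated samples, against 3.58 and 4.08 in vehicle samples. The log2 fold change was 5.54 (SE 0.18, limma adjusted p = 5.62e-06). DPPA3, also called STELLA, binds UHRF1 and displaces it from chromatin in mouse oocytes. DPPA3 was at 8.49 and 8.45 in treated samples, against 3.75 and 3.76 in vehicle samples, a log2 fold change of 4.72 (SE 0.11, limma adjusted p = 2.56e-06). Its other probe set read 6.84 and 7.0 in treated samples and 3.77 and 3.38 in vehicle samples, so both separated the groups. Without detection calls it is not known whether the vehicle levels of ZFP57 and DPPA3 lay above background. Their log2 fold changes are therefore differences of array readings only and are not restated as folds. DPPA3 has many pseudogene copies, and hybridization to their transcripts was not assessed. NSD1, which sets a histone mark read by DNMT3A, was at 8.91 and 8.99 in treated samples and at 8.46 and 8.60 in vehicle samples and rose by a smaller amount (1.34-fold, limma adjusted p = 0.0393), and its call was lost without vehicle replicate 1 (adjusted p = 0.306), vehicle replicate 2 (0.152) or treated replicate 2 (0.0748). DNMT3L, the inactive partner of the de novo enzymes, had a log2 fold change of 0.43 and was not called (adjusted p = 0.0581); it too was picked for naming with its value known. Without treated replicate 2 there were 5 rises in the list, among them DNMT3L, and over the fits with 1 array left out the rises numbered 2 to 5.

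**Figure D3:**
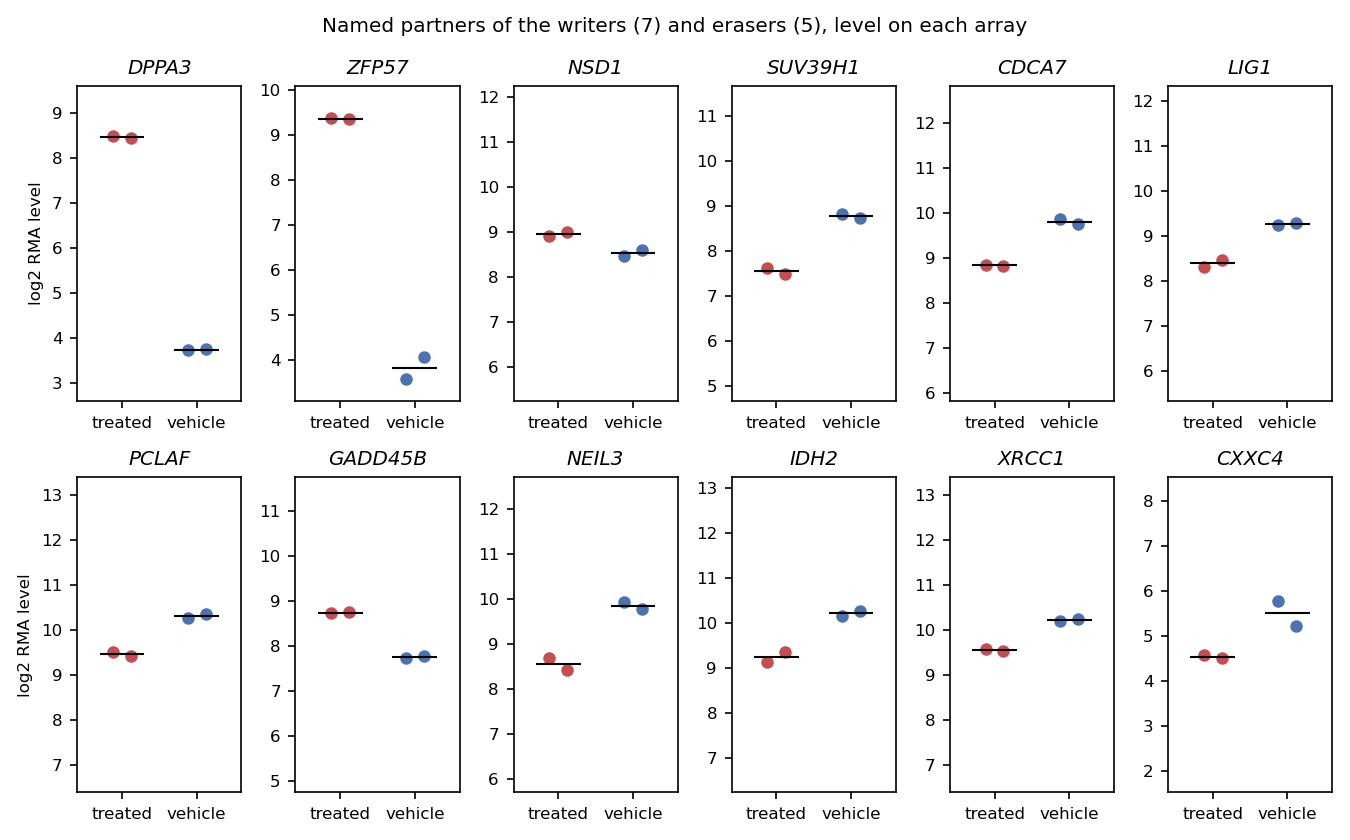
Log2 RMA level (y axis) of the 7 named partners of the writers (DPPA3 to PCLAF) and the 5 of the erasers (GADD45B to CXXC4) in treated and vehicle samples, 1 point per array with the mean as a line and a span of 7 log2 units in every panel. DPPA3 and ZFP57 stand between 8.45 and 9.38 in treated samples and between 3.58 and 4.08 in vehicle samples, and CDCA7 is lower in both treated samples.

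Proteins that supply or follow the erasers were a list of 24 genes, of which 21 were tested. Beside 15.6% falls and 12.4% rises among all genes, 7 of these fell, 1 rose and 13 were not called. Their median log2 fold change was -0.24 against -0.07 for all genes. NEIL3, a glycosylase that belongs to base excision repair, had the largest fall of the list. It was at 8.70 and 8.42 in treated samples and at 9.95 and 9.78 in vehicle samples (2.47-fold lower, limma adjusted p = 0.00102). IDH2, the mitochondrial enzyme that produces the TET cofactor alpha-ketoglutarate, was at 9.14 and 9.36 in treated samples and at 10.15 and 10.27 in vehicle samples (1.95-fold lower, adjusted p = 0.00249). XRCC1, the repair scaffold, was 1.58-fold lower (adjusted p = 0.00635). CXXC4, a CXXC protein that binds TET2 and promotes its degradation, was at 4.58 and 4.51 in treated samples and at 5.78 and 5.23 in vehicle samples. Its log2 fold change was -0.96 (limma adjusted p = 0.00997). These levels were low in both groups, and without detection calls it is not known whether they lay above background. GADD45B, a stress-induced protein of a family linked to repair-based demethylation, was the rise, at 8.73 and 8.75 in treated samples and 7.74 and 7.79 in vehicle samples (1.97-fold, adjusted p = 0.00128). The list had 3 falls without vehicle replicate 1 and 3 without vehicle replicate 2. XRCC1 was not called without vehicle replicate 2 (adjusted p = 0.0657), nor CXXC4 without vehicle replicate 1 (adjusted p = 0.0502).

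UHRF1, HELLS and DNMT1 are known as genes of proliferating cells, so DNA replication genes were set beside them. Of 38 replication genes, 31 fell and 0 rose in limma's test, beside 15.6% falls and 12.4% rises among all genes. Limma's unadjusted p was under 0.05 for 34 lower and 0 higher genes of the list. In this list 7 genes were not called, and the median log2 fold change was -0.78. The falls included the transcription factors E2F8 and E2F2, which were 2.77-fold and 2.34-fold lower, the polymerase subunit POLA1 (2.18-fold lower) and the primase PRIM1 (1.87-fold lower). The mean level of the list was 9.51 and 9.43 in treated samples, against 10.20 and 10.18 in vehicle samples. HELLS had a lower log2 fold change than each of the 38 genes, but without treated replicate 2 it had -1.37 and E2F8 -1.39. UHRF1 lay within their range, with 28 of them at a lower log2 fold change and 10 at a higher one. DNMT1 lay near the upper end, with 37 of the 38 genes at a lower log2 fold change. Within arrays, HELLS minus the list mean changed by -0.90, with -1.78 and -2.21 in treated samples against -1.06 and -1.13 in vehicle samples. The same difference changed by 0.61 for DNMT1 (0.83 and 1.05 in treated and 0.25 and 0.41 in vehicle samples) and by 0.15 for UHRF1 (0.33 and 0.44 in treated and 0.16 and 0.31 in vehicle samples). None of these 3 overlapped between groups, each at the smallest possible two-sided exact permutation p of 0.33 (0.370 adjusted over the 10 members). The same held for every other member except TET1. For TET1 the difference changed by 0.10, with overlapping groups (two-sided exact permutation p = 0.667). The list mean itself changed by -0.72 without overlap, which enters each of these differences. A gene with an unchanged level would thus also separate the groups, with a higher difference in treated samples. Such a rise of the difference is therefore no result about a member. The share of all genes for which the difference did not overlap was not counted. The part of the fall of replication genes in that of HELLS or UHRF1 was not tested.

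**Figure D4:**
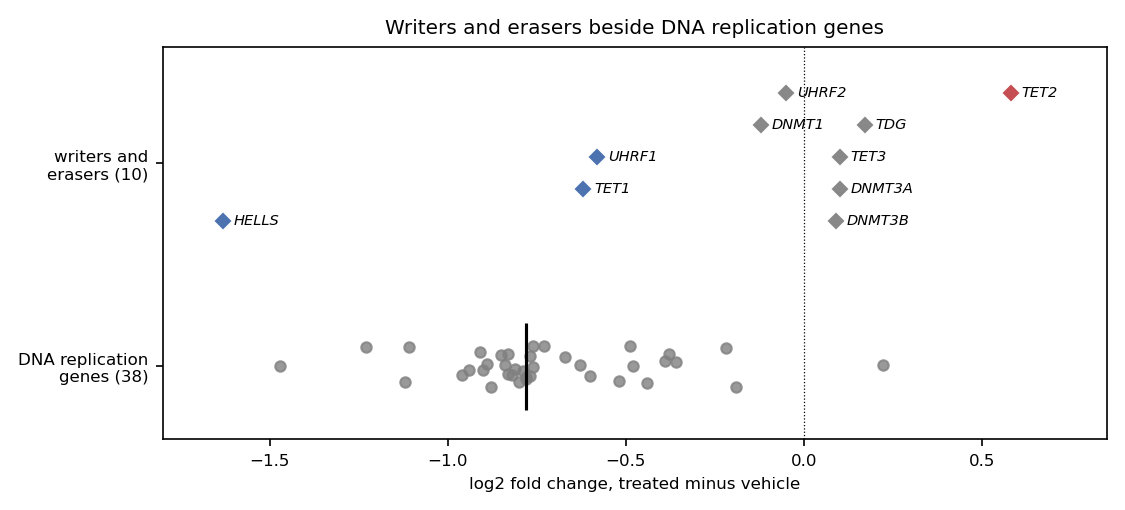
Log2 fold change, treated minus vehicle (x axis), of the 38 DNA replication genes (grey circles, their median of -0.78 as a bar, vertical spread for visibility only) and of the 10 writers and erasers (diamonds; blue called lower, red called higher, grey not called). HELLS lies left of all 38 replication genes, an order that 1 gene, E2F8, reversed without treated replicate 2, UHRF1 and TET1 lie among them, and DNMT1 lies right of all but 1.

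Promoter sequence is shown for HELLS and UHRF1, the writers that fell, and for the HELLS partner CDCA7. They were picked because they fell, as most of the replication genes did. Many replication genes carry sites for E2F transcription factors. A part of E2F factors in these falls was not tested. The sequences are the 250 bases before the annotated gene start in the RefSeq table of build GRCh38.p14, 5′ to 3′ on the gene's strand. Capitals mark an E2F-type motif, searched on both strands as TTNNCGC with the central pair CC, GG, CG or GC; no 2 matches overlap in the windows shown. HELLS has 1 annotated start, at chr10:94545538-94545787 for the window (plus strand), and UHRF1 has 3, of which the window with the most matches is shown (chr19:4909251-4909500, plus strand). The CDCA7 window is chr2:173354622-173354871 (plus strand).
HELLS: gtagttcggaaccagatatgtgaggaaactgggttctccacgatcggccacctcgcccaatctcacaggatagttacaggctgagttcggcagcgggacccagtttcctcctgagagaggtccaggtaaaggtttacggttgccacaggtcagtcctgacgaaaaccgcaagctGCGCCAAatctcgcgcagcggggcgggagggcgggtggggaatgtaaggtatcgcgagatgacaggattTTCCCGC
UHRF1: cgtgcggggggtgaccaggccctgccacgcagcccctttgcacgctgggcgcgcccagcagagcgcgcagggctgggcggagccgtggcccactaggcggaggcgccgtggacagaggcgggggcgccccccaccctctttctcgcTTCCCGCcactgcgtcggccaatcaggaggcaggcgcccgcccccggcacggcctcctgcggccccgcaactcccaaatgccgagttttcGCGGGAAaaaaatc
CDCA7: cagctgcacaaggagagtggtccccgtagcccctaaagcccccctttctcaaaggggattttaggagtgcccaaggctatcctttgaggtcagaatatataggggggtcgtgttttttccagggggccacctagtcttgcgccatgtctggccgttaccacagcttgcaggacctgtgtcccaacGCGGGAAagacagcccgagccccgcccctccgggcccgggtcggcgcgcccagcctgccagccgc
The HELLS window holds 2 matches, which begin 76 and 7 bases before the start, and 18 CpG sites. The UHRF1 window holds 2, at 104 and 14 bases, and 28 CpG sites; the other windows of this gene hold 1 and 0 matches. The CDCA7 window holds 1, at 65 bases, and 14 CpG sites. Such a match occurred in 13.0% of 27305 genes with a window, which are not limited to the 17958 genes measured. A window was found for 33 of the 38 replication genes, 21 of the 23 listed partners of the writers and 17 of the 24 of the erasers. Of those, 57.6%, 28.6% and 35.3% held a match, as did 5 of the 10 members. The motif itself contains a CpG, and the median number of CpG sites, taken from the richest window of each gene, was 12 over all genes, 26 in the replication genes, 21 in both partner lists and 22.5 in the members. Shares were not compared at equal CpG content or at equal numbers of windows. A gene counted when any of its windows held a match, so genes with more annotated starts had more chances. The 10 members had 21 windows. Over all genes there were 35116 windows, of which 10.9% held a match. The members with a match were HELLS, UHRF1, UHRF2, TET3 and TDG, and the last 3 of these did not pass the expression test. TET1, which fell, and DNMT1 had no match in their windows. A match of letters does not show that a factor binds there.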

How the data were processed

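Transcript levels of HCT116 cells were measured on 4 Affymetrix arrays, 2 of treated and 2 of vehicle cells, grouped by sample title. The authors deposited a log2 value for each probe set on each array, made with Affymetrix Expression Console and RMA, per the submitters' processing notes; versions, probe set definitions and build: not given in the sources used here. RMA equalises array distributions, so changes in the RNA content of a cell are hidden, and it tends to compress folds of dim genes. There are no detection calls.

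Of 33297 probe sets, 19181 had 1 gene symbol in the platform annotation, 2055 had several and 12061 were not listed. Each of 17958 genes was represented by its brightest probe set, a choice between several for 895. Chromosomes and promoters come from RefSeq tables (GRCh38.p14), in which all 10 members matched. limma 3.58.1 in R 4.3.3 (lmFit, eBayes, no covariate, two-sided) gave log2 fold changes, moderated SE and 95% intervals, after a test on simulated data; folds are powers of 2 of these. Members and lists were chosen with earlier results of these data known. Named were all members, up to 4 called genes per direction and list by smallest p, and the 3 nearest profiles of each called member; markers named to check the cell type are further exceptions. No gene was filtered. The alternatives were leaving out each array, repeated quantile normalization, centring on 10 housekeeping genes, leaving out the dimmest 33.3% of genes, averaging probe sets, a replicate block, an intensity trend and, chosen after seeing the data, a median change of 0.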

Additional observations from a re-analysis of the deposited data

How the results depend on the processing

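Leaving out 1 array moved the counts most. The members then numbered 0 to 1 rises and 1 to 3 falls, all genes 1267 to 2530 rises and 1196 to 3401 falls, the writers' partners 2 to 5 rises and 5 to 9 falls, the erasers' partners 3 to 7 falls, and the replication genes 21 to 33 falls. The lowest counts over all genes came without vehicle replicate 1 (1267 rises and 1196 falls) and without vehicle replicate 2 (1335 and 1237). Of 285 single-gene values under an alternative, for 26 genes, 270 kept their sign and their side of the threshold, 10 were no longer called, and 5 had the opposite sign, all of members that were not called. These were UHRF2 without treated replicate 2 (0.13), after repeated quantile normalization (0.03) and with the median change set to 0 (0.03), TET3 without vehicle replicate 1 (-0.05) and TDG without vehicle replicate 2 (-0.10). Over the fits with 1 array left out UHRF2 ran from -0.22 to 0.13, TET3 from -0.05 to 0.25 and TDG from -0.10 to 0.44. The cause of these changes was not tested. With the median change set to 0, 2603 genes rose and 2196 fell, against 2229 and 2794 as deposited, while the members kept 1 rise and 3 falls. Centring on the housekeeping genes, of which 1 rose and 0 fell (in limma, unadjusted p under 0.05 for 1 higher and 2 lower), gave 2198 rises and 2880 falls and the same 4 calls among the members. The samples share only a replicate number: deviations of the 2 arrays numbered 1 from their group means correlated at 0.266 over all genes. With the replicate block, 2805 genes rose and 3834 fell, and the members had 1 rise and 3 falls.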
